A study of Mus musculus with 6 samples.

Results

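The microRNA machinery of the mouse blastocyst was followed through 10 genes chosen by name: Drosha, Dgcr8, Xpo5, Dicer1, Tarbp2, Ago2, Tnrc6a, Mov10, Lin28a and Lin28b. All 10 were found on the array through the platform's gene symbols, updated by Entrez identifier, among 22485 genes with a named probe, and together they had 13 probes. Embryos of the B6C3F1 strain had been flushed from the oviduct on day 2 of pregnancy, from gonadotropin-primed females aged 6 to 8 weeks, and were cultured for 72 hours and taken as whole blastocysts of day 5. The scramble group (n = 3) was cultured with 400 nM of a scrambled oligonucleotide carrying Alexa 488, and the mimic group (n = 3) with 400 nM of a mimic of miR-30d. The design gives 30 embryos per condition, in triplicate, and from each sample's pooled RNA 50 ng was labelled with Cy3 for an array of its own. The labels name no transgene. Embryos cultured without an oligonucleotide were not analysed here, and the Alexa 488 dye, given for the scramble alone, cannot be told apart from the absence of miR-30d.

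A microRNA is made from a long transcript that the Microprocessor, the nuclease Drosha with its RNA-binding partner Dgcr8, cuts to a hairpin in the nucleus. Exportin 5 (Xpo5) carries the hairpin to the cytoplasm, where Dicer with its partner Tarbp2 cuts it to a short duplex, and 1 strand is loaded into an Argonaute protein such as Ago2. The loaded Argonaute pairs with messengers through the seed of the microRNA and recruits a GW182 protein such as Tnrc6a, which brings in deadenylases and decapping factors, while the helicase Mov10 associates with Argonaute complexes. Lin28a and Lin28b bind let-7 precursors and block their maturation in early embryos and stem cells. A synthetic mimic is supplied as a finished duplex, so it needs the loading and silencing steps but neither Drosha nor Dicer to be cut. The series asks what microRNAs from the endometrium do to the embryo's transcripts, and the comparison here is of the machinery's own transcripts between mimic and scramble. In whole embryos fewer cells of a type and less RNA per cell cannot be told apart.

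The let-7 family is shown because it is the substrate that Lin28a and Lin28b hold back, and its members are recognised as a family by their seed. In the RefSeq sequences of GRCm38.p6, 8 mature let-7 names of the 5′ arm, from 10 hairpin genes, all carried the same seed, bases 2 to 8. The 4 shown here are written 5′ to 3′ with the seed in capitals.
let-7a-5p, from chr13:48538239-48538260, minus strand: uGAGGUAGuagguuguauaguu
let-7d-5p, from chr13:48536078-48536099, minus strand: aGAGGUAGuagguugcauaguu
let-7e-5p, from chr17:17830366-17830387, plus strand: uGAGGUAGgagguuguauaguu
let-7g-5p, from chr9:106178846-106178867, plus strand: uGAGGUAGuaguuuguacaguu
The 4 differ from each other outside the seed, and let-7d also at its 5′ base.

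The 6 arrays did not stand at equal distances from each other, and this touches several of the results. The replicate 2 and 3 arrays of both groups correlated with each other at r = 0.974 to 0.988 over all named probes. Scramble replicate 1 reached at most 0.922 with any array, and mimic replicate 1 had 0.941 to 0.947 with the replicate 2 and 3 arrays. In scramble replicate 1, 8.85% of probes lay more than 1 log2 unit from their median over the arrays, against 4.27% in mimic replicate 1 and 0.0757% to 0.787% in the other 4. Results are therefore given with all arrays and, where they move, without scramble replicate 1 or without both replicate 1 arrays. The markers fitted the label blastocyst: 7 of 7 genes of trophectoderm, 6 of 6 of inner cell mass and epiblast and 5 of 5 of primitive endoderm had a mean log2 signal above 8. Markers of cumulus, oviduct, blood and sperm cells had means of at most 7.41, near the median of 7.22 of features without a gene name. Among 4 endothelial markers Kdr and Cdh5 had a mean above 8. Cdh5 read 7.41, 7.96 and 7.30 with scramble and 11.60, 8.56 and 8.11 on mimic replicates 1, 2 and 3. The endothelial list, summed, ranged from 10.49 to 11.71 with scramble and from 10.41 to 12.50 with the mimic. The part of these in the results was not tested.

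No gene of the machinery passed the threshold of an adjusted p of 0.05. In the limma fit over 17399 genes, from which probes in the dimmest 25% had been left out, 0 of 10 members passed, where 0 genes passed in all (0%), and 0 members had an unadjusted p under 0.05, against 552 genes (3.17%). In the same fit over 24769 probes 0 passed (0%), the 12 member probes above the filter included. With the mimic 8 of the 10 members had the higher mean and 2 the lower, and the median of their log2 differences (mimic minus scramble) was 0.11. Over all genes 53.2% had the higher mean with the mimic, and the median was 0.02. The groups did not overlap in 1 member, Dicer1, where 9.7% of all genes did not overlap, 5.58% with the mimic higher. By probe it was 1 of the 12, against 9.8% of all probes. For a single gene a two-sided exact permutation test of 3 arrays against 3 cannot give a p below 0.1.

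**Figure D1:**
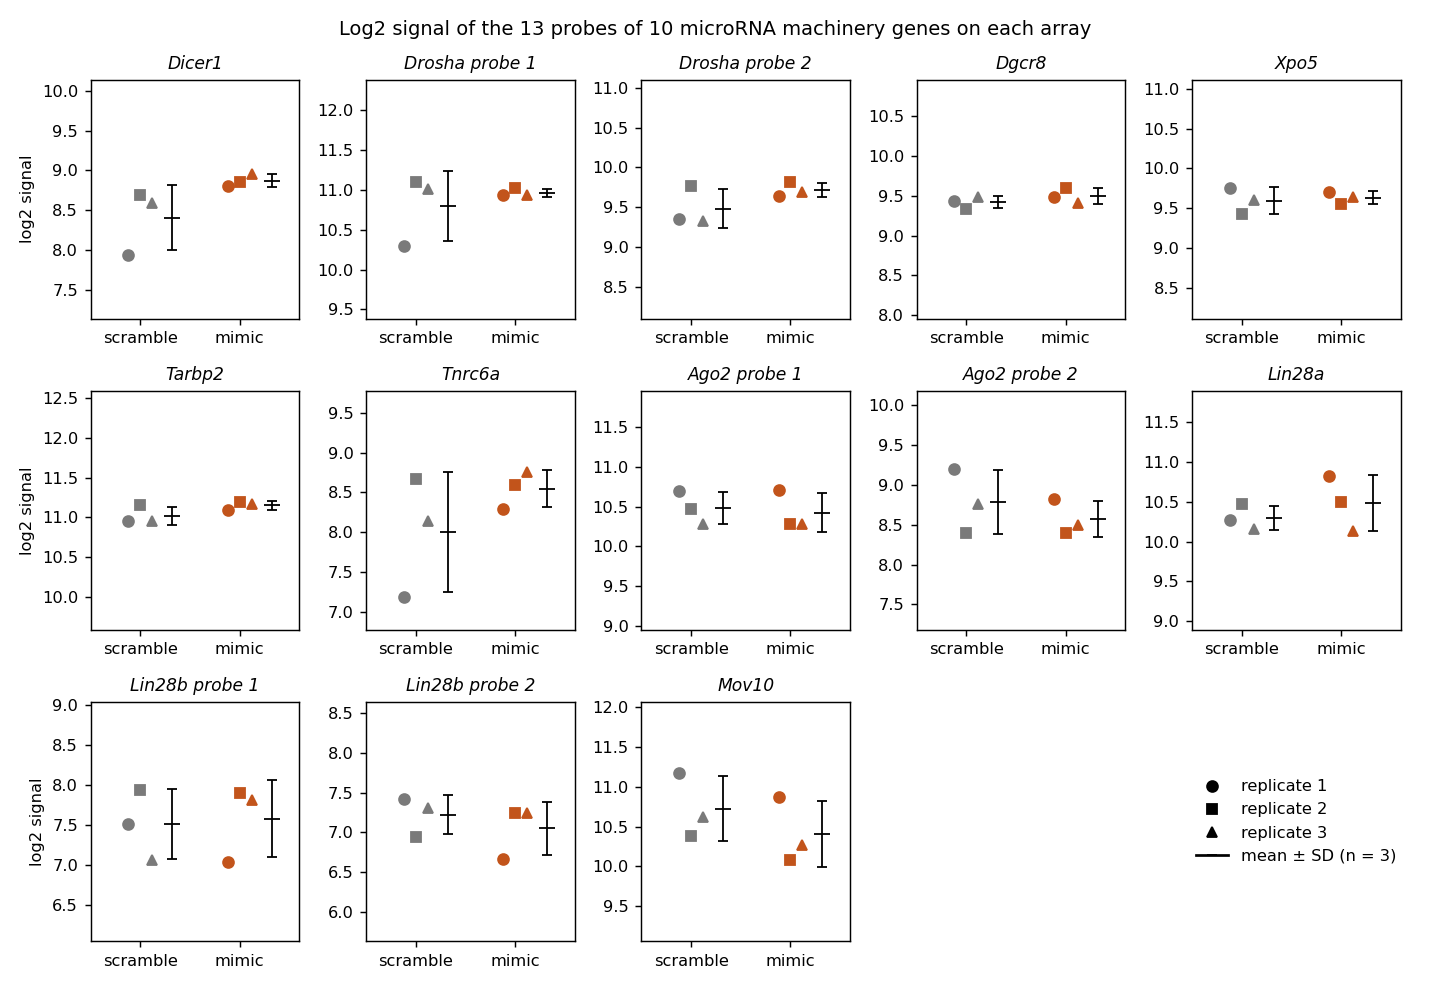
Log2 signal (vertical axes, each spanning the same range of log2 units) of the 13 member probes on each array, by group, with symbols for the replicate number and the mean ± SD (n = 3) beside each group. Only for Dicer1 do the 3 mimic arrays all lie above the 3 scramble arrays, and the scramble arrays of Dicer1, Tnrc6a and the brighter Drosha probe are spread by a low replicate 1.

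In the nucleus, Drosha, the nuclease of the Microprocessor, had 2 probes. Its brighter probe read 10.30, 11.10 and 11.01 on scramble replicates 1, 2 and 3, and 10.93, 11.03 and 10.93 on the mimic replicates. All but scramble replicate 1 lay close together, and the groups overlapped. Mimic minus scramble was 0.16 (SE 0.21, 95% interval -0.31 to 0.64; limma adjusted p = 0.972), and it took the other sign without scramble replicate 1, at -0.09. The dimmer Drosha probe read 9.35, 9.76 and 9.33 with scramble and 9.65, 9.82 and 9.70 with the mimic, which differed by 0.24 on the log2 scale (SE 0.18). On this probe the mimic array was the higher of each same-numbered pair, by 0.30, 0.06 and 0.37, whereas on the brighter probe only the replicate 1 pair was, by 0.64.

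Dgcr8, the double-stranded RNA-binding partner that positions Drosha on its substrate, was the member with the steadiest readings over the scramble arrays. It read 9.43, 9.34 and 9.48 with scramble and 9.49, 9.60 and 9.41 with the mimic. The groups overlapped throughout, and no array stood apart. The log2 difference of 0.08 (SE 0.16) had a 95% interval from -0.29 to 0.45, that is, from 0.817-fold to 1.37-fold.

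Xpo5, which exports the hairpin, read 9.76, 9.43 and 9.60 with scramble and 9.71, 9.55 and 9.64 with the mimic. Replicate 1 was the highest array of each group and replicate 2 the lowest. The groups differed by 0.04 on the log2 scale (SE 0.16, 95% interval -0.34 to 0.41), or 0.790-fold to 1.33-fold. Its sign turned without scramble replicate 2 (-0.05) and without mimic replicate 1 (-0.0025), so no direction is given.

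Dicer1, which encodes the cytoplasmic nuclease that cuts the hairpin, had the smallest p of the 10 members in the fit without the replicate block. With the block, and without both replicate 1 arrays, that of Mov10 was smaller (0.0139 against 0.0814, and 0.0517 against 0.117). It read 7.94, 8.69 and 8.59 on scramble replicates 1, 2 and 3, and 8.80, 8.85 and 8.96 on the mimic replicates. Every mimic array was above every scramble array, and scramble replicate 1 was the lowest by a wide margin: the SD was 0.41 with scramble and 0.08 with the mimic (n = 3 each). The log2 difference was 0.47 (SE 0.28), or 1.38-fold with a 95% interval from 0.891-fold to 2.14-fold, and it did not pass (limma adjusted p = 0.972; two-sided exact permutation p = 0.1). It was 0.23 without scramble replicate 1 and 0.26 (SE 0.15) without both replicate 1 arrays, with an interval from -0.08 to 0.61. The same-numbered differences were 0.87, 0.16 and 0.37, all on the higher side but the widest from the pair that holds scramble replicate 1. By unadjusted p Dicer1 ranked 1808 of 17399 genes, and 9.29% of all named probes had an absolute log2 difference at least as large.

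Tarbp2, the partner of Dicer that also takes part in loading, was measured with the smallest standard error of the 10. It read 10.96, 11.15 and 10.96 with scramble and 11.09, 11.20 and 11.17 with the mimic. The groups overlapped only through scramble replicate 2. The log2 difference of 0.13 (SE 0.12) had a 95% interval from -0.14 to 0.41, from 0.906-fold to 1.32-fold, and it hardly moved without both replicate 1 arrays (0.13, SE 0.13). The same-numbered differences were 0.13, 0.04 and 0.22.

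**Figure D2:**
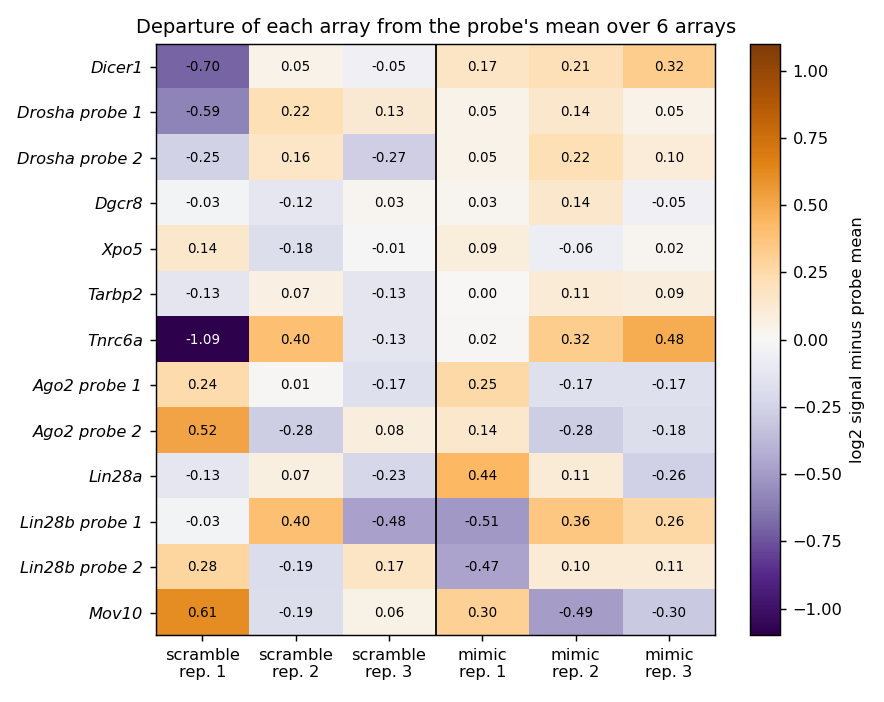
Departure of each array (columns) from the probe's own mean over the 6 arrays, in log2 units by colour and number, for the 13 member probes (rows). Scramble replicate 1 holds the largest departures, -1.09 for Tnrc6a, -0.70 for Dicer1 and 0.61 for Mov10, while Dgcr8 stays within 0.15 of its mean on all arrays.

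Ago2, the Argonaute that can cut a fully paired target and that carries the loaded microRNA, had 2 probes. The brighter read 10.69, 10.47 and 10.28 with scramble and 10.70, 10.28 and 10.28 with the mimic. The replicate 1 arrays of both groups were the highest and nearly equal, and the groups overlapped. Mimic minus scramble was -0.06 (SE 0.17, 95% interval -0.45 to 0.34), with the other sign without scramble replicate 1 (0.05), without mimic replicate 2 (0.01) and without mimic replicate 3 (0.01). The dimmer probe read 9.20, 8.40 and 8.76 with scramble and 8.83, 8.40 and 8.50 with the mimic, which gave -0.21 (SE 0.28). It too was highest on replicate 1 in each group.

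Tnrc6a, the GW182 scaffold that links Argonaute to deadenylation, had the largest difference in value and also the widest spread. It read 7.18, 8.67 and 8.14 with scramble and 8.29, 8.60 and 8.76 with the mimic. The scramble reading of replicate 1 lay near the level of features without a gene name, and scramble replicate 2 lay above 2 of the 3 mimic arrays. The log2 difference was 0.55 (SE 0.40), or 1.46-fold with a 95% interval from 0.773-fold to 2.76-fold (limma adjusted p = 0.972, two-sided exact permutation p = 0.3). It was 0.14 without scramble replicate 1, 0.88 without scramble replicate 2 and 0.27 (SE 0.20) without both replicate 1 arrays. The same-numbered differences were 1.11, -0.08 and 0.62.

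Mov10, an RNA helicase found with Argonaute proteins, was the member with the most even same-numbered differences. It read 11.18, 10.38 and 10.62 on scramble replicates 1, 2 and 3, and 10.87, 10.07 and 10.27 on the mimic replicates. Within each group replicate 1 was the highest and replicate 2 the lowest, with about the same distances, so the groups overlapped although each mimic array lay below its same-numbered scramble array, by -0.31, -0.31 and -0.36. Mimic minus scramble was -0.32 (SE 0.26, 95% interval -0.91 to 0.26) without regard to the numbers. With the replicate number as a block it had an SE of 0.10 and a 95% interval from -0.56 to -0.09, an unadjusted p of 0.0139 where 7.24% of all genes had one under 0.05, and an adjusted p of 0.587 (limma). It thus did not pass in either model. The value was -0.33 (SE 0.15) without both replicate 1 arrays. Leaving out 1 array, which breaks a pair, gave -0.10 without scramble replicate 1, -0.16 without mimic replicate 2, -0.50 without scramble replicate 2 and -0.56 without mimic replicate 1.

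**Figure D3:**
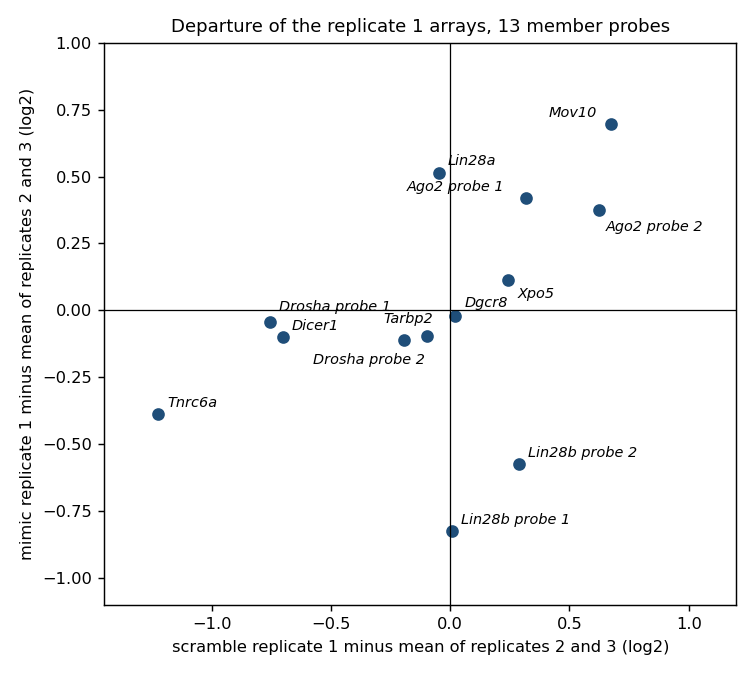
Log2 signal of replicate 1 minus the mean of replicates 2 and 3, in the scramble group (horizontal axis) and the mimic group (vertical axis), 1 point per member probe. Mov10 and both Ago2 probes were higher on replicate 1 in each group, Tnrc6a and Dicer1 lower, and both Lin28b probes lower only in the mimic group.

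The departure of the replicate 1 arrays was set beside the treatment difference for each member. Averaged over the groups in absolute value it exceeded the absolute treatment difference in 7 of 10 members, against 79.7% of all genes. A single array against a mean of 2 varies more than a mean of 3 against a mean of 3. Spread alone would therefore give such a result in most genes, and the count cannot single out replicate 1. The departure had the same sign in both groups in 7 of 10 members, against 64.1% of all genes. Mov10 was 0.68 higher on scramble replicate 1 than the mean of scramble replicates 2 and 3, and 0.70 higher on mimic replicate 1 than the mean of its group's other arrays. Tnrc6a was -1.22 and -0.39 by the same measure, and Dicer1 -0.70 and -0.10. What sets the replicate 1 arrays apart was not tested.

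Lin28a and Lin28b are paralogues, both with a cold shock domain and zinc knuckles that bind let-7 precursors. Lin28a read 10.27, 10.47 and 10.16 with scramble and 10.83, 10.50 and 10.13 with the mimic. Mimic replicate 1 was the highest array, and the other arrays lay between 10.13 and 10.50. The log2 difference of 0.19 (SE 0.19, 95% interval -0.25 to 0.63) was 0.02 without mimic replicate 1, 0.37 without mimic replicate 3 and 0.0003 (SE 0.17) without both replicate 1 arrays.

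Lin28b had 2 probes, the brighter of them near the middle of named probes by mean signal and the other near the dim end. The brighter probe read 7.51, 7.94 and 7.06 with scramble and 7.03, 7.90 and 7.81 with the mimic, with overlapping groups and an SD of 0.44 and 0.48 (n = 3 each). The log2 difference was 0.07 (SE 0.34, 95% interval -0.70 to 0.84), and it turned negative without scramble replicate 3 (-0.15), mimic replicate 2 (-0.09) or mimic replicate 3 (-0.04). The other probe, with readings from 6.67 to 7.41, was the 1 member probe under the filter of 7.16 on the mean, and in the fit without a filter it had a log2 difference of -0.17 (SE 0.22). The brighter Lin28b probe lay at percentile 53.9 of named probes by mean signal and the other at 21.6, against 88.1 for Lin28a. Signals of different probes do not measure relative amounts of transcript, and these places only rank the probes.

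Over the 10 members the 95% interval lay within 2-fold either way in 8, against 72.8% of all genes, and it reached beyond 2-fold for Dicer1 and Tnrc6a alone. By the brightest probe all 3 same-numbered differences had 1 sign in 3 of 10 members, where 33% of all genes had 1 sign. These were Dicer1 and Tarbp2 with the mimic higher and Mov10 with the mimic lower. Over the member probes above the filter it was 5 of 12, against 33% of all probes. The dimmer Drosha probe was then added on the higher side and the dimmer Ago2 probe on the lower. With the replicate number as a block 1 gene of 17399 passed (0.00575%), and it was no member.

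**Figure D4:**
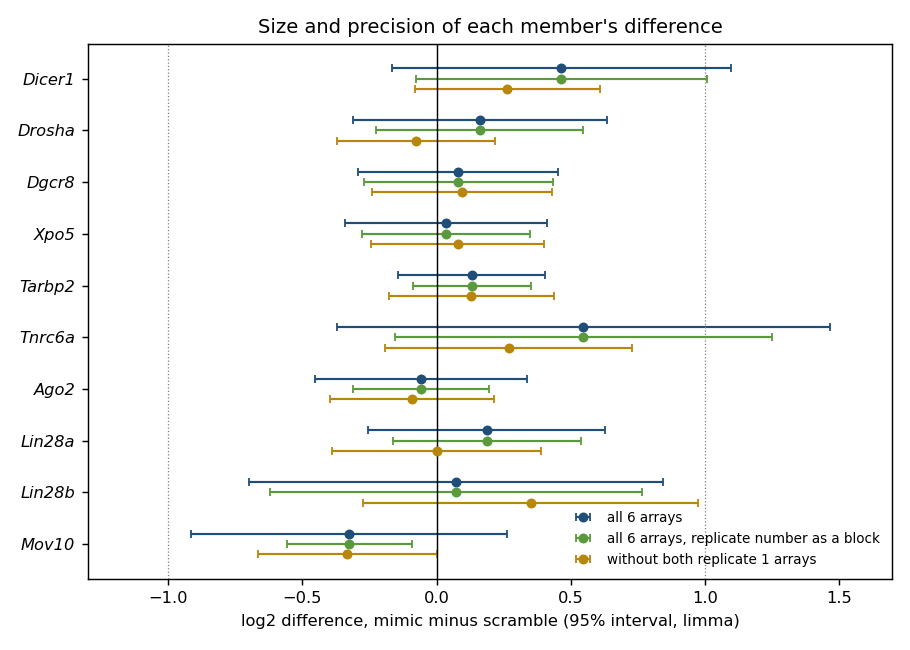
Log2 difference, mimic minus scramble, of the 10 members with the 95% interval of the limma fit over all 6 arrays, with the replicate number as a block, and without both replicate 1 arrays. Dotted lines mark 2-fold. The interval of Mov10 lies below 0 only with the block, where it runs from -0.56 to -0.09.

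The wider pathway was described by 7 role lists with 98 genes, of which 91 were tested, the members among them. In the limma fit 0 of the 91 passed, where 0% of all genes did, and 1 was under 0.05 before adjustment, against 3.17% of all genes. Under the block 0 passed and 8 were under 0.05 before adjustment, against 7.24% of all genes. By the brightest probe these were Ddx5, Ranbp1, Tardbp, Pan2 and Arid3a with the mimic higher, and Mov10, Hsp90aa1 and Hspa8 with it lower. The other probes of Hspa8 had -0.15 and 0.05, and those of Tardbp 0.22 and 0.06. The groups did not overlap in 10 of the 91, 9 with the mimic higher, against 9.7% and 5.58% of all genes. Leaving the members aside, 51 of 81 had the higher mean with the mimic, against 53.2% of all genes. The other 30 had the lower, and the median difference was 0.09. Btg4, Piwil1, Piwil4, Tdrd9 and Tdrkh had only probes under the filter. Hsp90ab1 and Igf2bp2 were not matched.

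Among the Microprocessor and its cofactors 9 of 15 had the higher mean with the mimic and 6 the lower (median 0.08). The median was 0.03 without scramble replicate 1 and -0.0070 with the mean of a gene's probes. The 1 gene with an unadjusted p under 0.05 without the block was Ddx5, a DEAD-box helicase of the Microprocessor. Its brightest probe read 10.33, 10.81 and 11.02 with scramble and 11.04, 11.13 and 11.45 with the mimic, with no overlap. It differed by 0.48 (SE 0.20), at an unadjusted p of 0.0384 and an adjusted p of 0.972. Its other probes had 0.12 and -0.01, so its 3 probes did not give the same picture. Smad3, a signal transducer that can bind the Microprocessor, had 0.49 (SE 0.30), and 0.19 without both replicate 1 arrays. Tardbp, an RNA-binding protein, had 0.30 (SE 0.23).

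In the list of export and dicing 7 of 11 had the higher mean with the mimic and 4 the lower. Their median of 0.13 moved between -0.03 and 0.20 when single arrays were omitted. Beside Dicer1, the genes with the smallest p were Ranbp1, a cofactor of the Ran cycle that drives nuclear export, with 0.32 (SE 0.17), and Eri1, an exonuclease of small RNAs, with 0.34 (SE 0.30). Ranbp1 kept 0.30 without both replicate 1 arrays. Neither passed.

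The Argonautes and the chaperones that load them had the lower mean with the mimic in 7 of 11 and the higher in 4. Their median of -0.01 ran from -0.06 to 0.10 as single arrays were omitted, with the other sign without scramble replicate 2 (0.05), scramble replicate 3 (0.10) or mimic replicate 2 (0.01). Their smallest p-values were those of the chaperone Hsp90aa1 (-0.24, SE 0.23), of Ago3 (0.20, SE 0.23) and of the co-chaperone Fkbp5 (0.16, SE 0.23). The other Argonautes had log2 differences of -0.0034 (SE 0.26) for Ago1, which had -0.36 without both replicate 1 arrays, and -0.12 (SE 0.22) for Ago4. The dimmer Ago1 probe had 0.14, with no overlap between the groups, where 9.8% of all probes had none. The dimmer Ago4 probe had -0.03. By their brightest probes the 4 Argonaute genes had values on both sides of 0, each smaller than its standard error over all arrays.

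Of 24 effectors of silencing 17 had the higher mean with the mimic and 7 the lower. Their median of 0.09 was 0.03 without scramble replicate 1, 0.16 without scramble replicate 2 and 0.19 without mimic replicate 1. Pan2, a subunit of a deadenylase that GW182 proteins recruit, had 0.44 (SE 0.23), and 0.24 without both replicate 1 arrays, since it read 9.74 on scramble replicate 1 against 10.58 on both other scramble arrays. Eif4e2, a cap-binding repressor of translation, had 0.17 (SE 0.11) and Wtip, a LIM-domain protein linked to silencing complexes, 0.19 (SE 0.13). These and Eif4enif1 were the 3 of 24 effectors without overlap, against 9.7% of all genes. The other probes of Eif4e2 had 0.03 and 0.01, with overlapping groups. The paralogues of Tnrc6a had 0.09 (SE 0.26) for Tnrc6b and 0.46 (SE 0.43) for Tnrc6c. Tnrc6c read 7.27, 8.15 and 7.45 with scramble and 7.23, 8.42 and 8.61 with the mimic, so it was low on both replicate 1 arrays and on scramble replicate 3. Unlike that of Tnrc6a, its difference was larger without both replicate 1 arrays, at 0.72, and it did not pass there either.

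The CCR4-NOT complex is the main deadenylase of microRNA-directed decay. By the brightest probe 9 of its 10 tested genes had the higher mean with the mimic and 1 the lower, where 53.2% of all genes had the higher. The median was 0.22, and 0.10 without scramble replicate 1. Further probes had -0.06 for Cnot6l, -0.11 for Cnot11, and 0.21 and -0.04 for Cnot2, the last under the filter. Its scaffold gene Cnot1 had 0.31 (SE 0.18), the catalytic subunit gene Cnot6 0.23 (SE 0.14) and Cnot3 0.29 (SE 0.25). Without both replicate 1 arrays Cnot1 had 0.10, Cnot3 0.07 and Cnot6 0.38. The split was then 6 to 4 with a median of 0.08, where 55% of all genes had the higher mean. Cnot10, another subunit gene, read 6.92 on scramble replicate 1 and 9.22 and 9.40 on the other scramble arrays. None of the genes passed, and no group of 3 arrays was clear of the other in any of them.

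In the list of Lin28 and the let-7 axis 10 of 13 had the higher mean with the mimic and 3 the lower (median 0.19, and 0.12 without scramble replicate 3). Without both replicate 1 arrays the split was 12 to 1 and the median 0.16, where 55% of all genes had the higher mean. The 12 included Lin28a, at 0.0003. Igf2bp1, an RNA-binding protein whose messenger is a known let-7 target, had 0.28 (SE 0.14). Dis3l2, the exonuclease that degrades let-7 precursors tailed under Lin28, had 0.33 (SE 0.17), and Arid3a, a DNA-binding factor, had 0.26 (SE 0.15). By the brightest probe the groups did not overlap in these 3 of 13 genes, against 9.7% of all genes, and none passed. Without both replicate 1 arrays Igf2bp1 had 0.18, Dis3l2 0.14 and Arid3a 0.29. The dimmer Dis3l2 probe had 0.09 and the dimmer Arid3a probe 0.67, both with overlapping groups. Further probes of other genes in the list went both ways. They had 0.49 for Trim71, without overlap, and 0.01 for Tut4, but -0.28 for Hmga2 and -0.26 and -0.06 for Arid3b. The uridylyl transferase genes Tut4 and Tut7, which tail the precursors, had -0.06 (SE 0.19) and 0.25 (SE 0.17).

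Proteins of the piRNA pathway, the germline branch of small RNA silencing, were mostly dim, and 7 of 11 listed genes were tested. Tdrd1 passed the filter only through mimic replicate 1. Of the other 6 genes 2 had the higher mean with the mimic and 4 the lower. Asz1 had 0.63 (SE 0.34), and 0.13 without both replicate 1 arrays. Pld6 had -0.55 (SE 0.35), and -0.34 without both replicate 1 arrays. The groups of Pld6 did not overlap, with the mimic lower, where 4.12% of all genes did so. Asz1 and Tdrd1 each had an isolated high reading on mimic replicate 1, 8.50 and 8.56, against at most 7.75 and 7.13 on the other arrays.

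**Figure D5:**
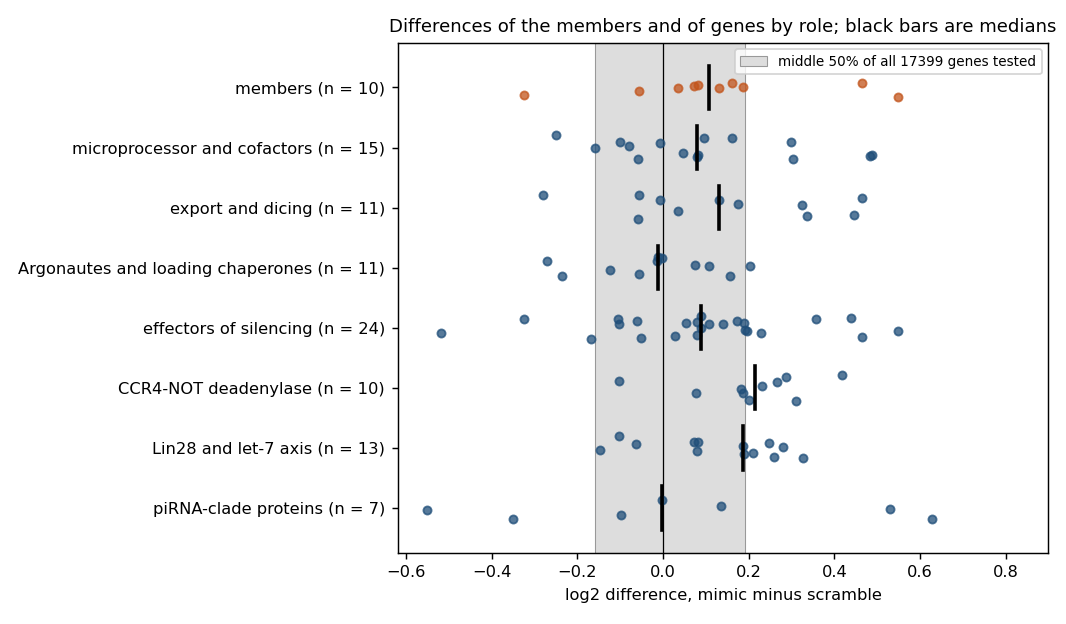
Log2 differences, mimic minus scramble, of the 10 members and of the tested genes of 7 role lists, 1 point per gene, with the median of each list as a black bar and the middle 50% of all 17399 genes (-0.16 to 0.19) shaded. Most points lie within or near the shaded range, and the CCR4-NOT median lies just above it.

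The promoters of the members differed widely in base composition. RefSeq promoter windows of GRCm38.p6 were found for 9 members, 10 windows in all, and the 250 bases before the start were used. In 7 of the 10 the ratio of observed to expected CpG was at least 0.6, against 34.0% of all 32851 promoter windows. The G and C content ran from 39.2% for Lin28b and 42.4% for Tnrc6a to 73.6% for Dgcr8 and 76.0% for Dicer1, with a median of 52.4% over all windows. Both strands were searched for TATAAA (found in 12.4% of all windows), CCAAT (33.9%), GGGCGG (32.7%) and CACGTG (6.02%), none of which contains another. Of the member windows 0 held TATAAA, 5 held CCAAT, 4 held GGGCGG and 1 held CACGTG. A match is a description of letters, and no binding was measured here.

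The windows of Dicer1, the member without overlap between groups, and of the paralogues Lin28a and Lin28b, which lay far apart on the brightness scale, are printed 5′ to 3′ on the gene's strand with matches on either strand in capitals.
Dicer1, chr12:104751953-104752202, minus strand: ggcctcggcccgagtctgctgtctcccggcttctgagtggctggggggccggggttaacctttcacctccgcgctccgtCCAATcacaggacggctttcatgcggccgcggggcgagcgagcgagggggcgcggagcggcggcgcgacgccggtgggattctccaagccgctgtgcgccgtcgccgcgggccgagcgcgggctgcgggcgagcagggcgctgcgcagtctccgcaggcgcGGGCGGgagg
Lin28a, chr4:134018817-134019066, minus strand: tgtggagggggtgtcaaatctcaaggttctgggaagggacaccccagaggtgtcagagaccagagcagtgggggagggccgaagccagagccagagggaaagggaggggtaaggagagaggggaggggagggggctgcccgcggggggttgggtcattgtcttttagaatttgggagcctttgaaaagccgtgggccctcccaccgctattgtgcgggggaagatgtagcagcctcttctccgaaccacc
Lin28b, chr10:45470202-45470451, minus strand: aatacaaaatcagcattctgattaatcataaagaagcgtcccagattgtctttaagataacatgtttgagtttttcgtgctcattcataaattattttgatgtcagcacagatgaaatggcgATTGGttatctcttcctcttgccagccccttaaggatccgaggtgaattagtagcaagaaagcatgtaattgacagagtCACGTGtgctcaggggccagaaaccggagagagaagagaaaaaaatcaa
The Dicer1 window held 39 CpG and 1 match each of CCAAT and GGGCGG. The Lin28a window held 7 CpG and 0 matches, with a G and C content of 61.2%, and the Lin28b window 6 CpG, 1 match of CCAAT on the other strand and 1 of CACGTG. These sequences were not set against the mimic differences, which did not pass for any of the 3 genes.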

How the data were processed

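The authors deposited a series table of log2 signal for 45220 features on 6 1-colour arrays, and the values are used as deposited. No method of scanning, background correction or normalization was named (not given in the sources used here). The scale was read from the values, and the nearly equal array medians (7.37 to 7.38) mean that a change shared by most transcripts would not show. No detection flags were used, so a dim probe has no known limit of detection, and the number of arrays limits the precision (median SE of a log2 difference 0.249). The titles call the samples biological replicates without saying whether cultures or matings were separate, so a p-value reflects only spread among these samples, which may be technical.

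Of the features 33026 had 1 gene symbol, and 32438 of them (98.2%) were matched by Entrez identifier to a RefSeq gene table of GRCm38.p6, used for names only. Probes in the lowest 25% by mean were left out, the brightest probe stood for a gene, and limma 3.58.1 in R 4.3.3 (lmFit, eBayes with a trend, two-sided, Benjamini-Hochberg over all genes or all probes) compared the groups. Values for dimmer probes of a gene come from the fit over probes. The fit was tested on simulated data, with independent noise on each array and planted changes larger than any member's difference. That test therefore does not bear on differences of the members' size or on the replicate 1 arrays. The members and lists were chosen with earlier results of these data known. The genes named are all members and, in each list, the 3 with the smallest p; Ago1, Ago4, Tnrc6b, Tnrc6c, Tut4, Tut7, Cnot10, Hspa8 and Eif4enif1 were added after their values were seen.

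Arrays with the same number deviated together from their groups, with correlations of 0.318, 0.317 and 0.183 for replicates 1, 2 and 3, each over 0.1. The numbers were therefore used as a pairing in the block fit and in the same-numbered differences, but not in the main fit. The pairing is read from the data, and 2 differently numbered pairs also exceeded 0.1 (0.166 and 0.101). Deviations within a group sum to 0, so the correlations are not independent of each other. A departure shared by the replicate 1 arrays alone raises those among replicates 2 and 3. The pairing, and the intervals of the block, therefore rest on weak ground. Figures were drawn with matplotlib 3.10.9.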

Additional observations from a re-analysis of the deposited data

How the results depend on the processing

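With the replicate number as a block, the paired analysis, 1 gene and 1 probe passed in place of 0 and 0, neither of them a member or a probe of one, and it changed no call of a member. Genes with an unadjusted p under 0.05 numbered 552, against 1260 with the block, 1208 with array weights, 1000 without both replicate 1 arrays and 919, 377 and 362 without scramble replicate 2, mimic replicate 3 and mimic replicate 2. Over 15 alternatives the log2 differences of the 10 members gave 150 values, of which 139 kept their sign and 0 passed. Under the block, either change of filter or no variance trend a member's difference stays as it was, so those signs were fixed in advance. The count of kept signs therefore overstates how steady they were. With each array left out in turn, Drosha ran from -0.091 to 0.31, Ago2 from -0.20 to 0.049, Xpo5 from -0.048 to 0.12, Lin28b from -0.15 to 0.35 and the median of the members from 0.093 to 0.23. Drosha had -0.076 without both replicate 1 arrays and -0.020 with array weights. The cause was not tested. Quantile normalization, subtracting array medians and the mean of a gene's probes turned no member's sign. The mean of probes moved only Drosha and Ago2. The dimmer Lin28b probe and most piRNA genes lay near features without a gene name, where differences can be understated.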

Other observations

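Transcripts that carry microRNAs were read by 9 probes of 8 host genes, 6 of the probes above the filter. Mir17hg, the host of the miR-17 cluster of proliferating and embryonic cells, read 9.20, 9.41 and 9.28 with scramble and 8.94, 9.11 and 9.53 with the mimic, which gave -0.11 on the log2 scale (SE 0.21) in the limma fit over all named probes. Its groups overlapped, with mimic replicate 3 the highest array and mimic replicate 1 the lowest. Apart from 8.48 for Mir124-2hg on scramble replicate 1, the other probes read 6.82 to 7.67, in the range of features without a gene name. None of the 9 passed.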
